A study of Mus musculus with 12 samples.

Results

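Toll-like receptors and the interleukin-1 (IL-1) receptor sense microbes, damaged cells and released cytokines, and both use the adaptor MyD88 to free the transcription factor NF-kB from its inhibitor. In the heart these genes are known from resident and infiltrating immune cells, from fibroblasts and endothelium and, at lower levels, from heart muscle cells. Here 10 genes of this pathway were followed in the mouse left ventricle: the receptors Tlr1, Tlr2 and Tlr4, the co-receptor Cd14, the adaptor Myd88, the cytokines Il1b, Il18 and Il33, the receptor Il1r1 and the NF-kB inhibitor Nfkbia. They were chosen by symbol, with earlier results of these data known, as were the gene lists and markers used below. Counts of them beside the shares of all genes are therefore descriptions and not tests. Each gene was read from its brightest probe set (the set of short probes that measures a transcript). The 10 are among 11624 genes tested.

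The series holds 12 Affymetrix arrays of left ventricular RNA from Balb/c mice aged 6 to 8 weeks, with 1 array per group and so no replicate. The groups with a procedure are transverse aortic constriction (TAC), which narrows the aorta and loads the ventricle, at 1 day, 1 week and 1 month, myocardial infarction (MI) at 1 week and 1 month, and angiotensin II (Ang II, a pressor hormone) infused at 2.0 mg/kg/day, at 1 week. Each has its own control array: a sham operation at the same time for TAC and for MI, and saline vehicle for Ang II. The array labels call the infarct a coronary ligation, the series text describes a temporary occlusion with reperfusion, and neither says how many animals an array holds. They also differ on the 1 day time, which the array labels give to TAC and the series text to MI. The groups here follow the array labels, so the model behind each TAC 1 day value is not settled between these sources. That array also stands apart in its deposited values, 99.3% of which have more than 1 decimal, against 0% on each of the other 11 arrays, and whether it was processed in another way is not stated. The sham of each series and time was matched to its procedure through the sample titles.

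Values are signals scaled to a common trimmed mean, and a change is the log2 ratio of procedure to control. With 1 array per group a single pair has no test. Beside it stands the largest log2 difference between 2 control arrays of the same time, out of 4 such comparisons. It measures how far controls differed. Each comparison sets controls of different series against each other (TAC sham, MI sham or Ang II vehicle). The type of control, the series and the single array cannot be told apart in them. All 4 are at 1 week or 1 month. The 1 day time has 1 control array, so TAC 1 day ratios stand beside differences between later controls. The mean over the 6 pairs was tested with limma, given with the standard error (SE) of its fit and called at a Benjamini-Hochberg adjusted p under 0.05 over all 11624 genes. In bulk tissue, a change in the number of cells of a type and a change in the RNA of each cell cannot be told apart.

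All 10 genes lay above the limit for dim genes, a mean signal of 18.1. Tlr1 was just above it, with a mean of 18.6 and a control median of 16.3, and it was at the floor of 4.54 on 2 of 12 arrays (the TAC 1 month array and the Ang II control). Cardiomyocyte markers were bright throughout, with a summed signal of 63730 to 78480 in procedure arrays and 75416 to 81723 in controls over 7 genes. T cell and B cell markers were dim, with 0 of the 5 and 0 of the 3 on the array above the limit.

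NF-kB binds a site of 10 bases, and 3 of the 8 genes searched carry a match to its consensus in the 250 bases before a transcription start. Those windows are shown because they are the ones with a match. They are in 5′ to 3′ order on the strand of the gene, from RefSeq (GRCm38.p6), with the match in capitals.
Nfkbia, chr12:55492648-55492897, minus strand: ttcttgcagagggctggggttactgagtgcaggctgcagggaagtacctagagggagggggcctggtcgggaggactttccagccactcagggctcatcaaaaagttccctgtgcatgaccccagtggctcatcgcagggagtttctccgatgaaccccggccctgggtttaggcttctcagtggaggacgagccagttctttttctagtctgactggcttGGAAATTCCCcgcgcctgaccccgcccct
Tlr2, chr3:83841609-83841858, minus strand: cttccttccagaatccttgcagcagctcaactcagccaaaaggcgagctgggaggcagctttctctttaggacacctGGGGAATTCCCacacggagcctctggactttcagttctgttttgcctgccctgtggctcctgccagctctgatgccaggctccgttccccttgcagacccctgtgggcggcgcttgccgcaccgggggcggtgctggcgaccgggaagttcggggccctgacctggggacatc
Il1r1 (the second of its 2 listed starts), chr1:40266336-40266585, plus strand: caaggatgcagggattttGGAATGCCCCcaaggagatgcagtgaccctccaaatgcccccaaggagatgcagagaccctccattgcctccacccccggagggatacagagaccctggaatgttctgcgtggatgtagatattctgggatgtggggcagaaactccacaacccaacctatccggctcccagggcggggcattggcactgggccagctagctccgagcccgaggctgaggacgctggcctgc
The match in Nfkbia began 29 bases before the start, that in Il1r1 232 bases before, and the capitals in Tlr2, which begin 173 bases before, hold 2 overlapping matches. The NF-kB consensus reads as the same pattern on both strands. It was found in 3 of the 11 windows searched, which belong to 8 of the 10 genes (Tlr4 and Cd14 were not searched), and in 9.55% of all 32851 windows in the table. A match is a description of the letters and not evidence of binding.

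Over the mean of the 6 pairs, 3 of the 10 genes rose, Tlr4, Cd14 and Il1r1, and 0 fell. Tlr4, the receptor for bacterial lipopolysaccharide, rose by 0.56 ± 0.12 (SE, 6 pairs; limma adjusted p = 0.0198). Cd14, which hands lipopolysaccharide to it, rose by 0.90 ± 0.21 (adjusted p = 0.0289). Il1r1, the signalling receptor for IL-1, rose by 0.68 ± 0.19 (adjusted p = 0.0462), and each of the 3 was higher in 6 of 6 pairs. Of all genes tested, 5.16% were called higher and 5.7% lower. The median of the 10 means was 0.50, against -0.0038 for all genes tested.

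The 3 calls depended on the fit. None of the 3 passed without the filter on dim genes or without the intensity trend, with adjusted p for Tlr4 of 0.0815 and 0.06. Leaving out the TAC 1 week or the TAC 1 month pair also left 0 of the 3, with 0.0667 and 0.064 for Tlr4. Without the TAC 1 day pair Tlr4 and Cd14 passed. Cd14 did not pass without the MI 1 week pair (0.0817) or the MI 1 month pair (0.0838), and Il1r1 did not pass with any 1 of the 6 pairs left out (0.0574 to 0.133). It also lost its call after quantile normalization (0.0574) and with the mean of both its probe sets (0.33, limma adjusted p = 0.409). The second of these sets was below the dim limit (mean signal 5.09), so that mean is not a second usable measurement. Without the pair as a block Tlr4 passed (0.0353), and Cd14 (0.064) and Il1r1 (0.137) did not.

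**Figure D1:**
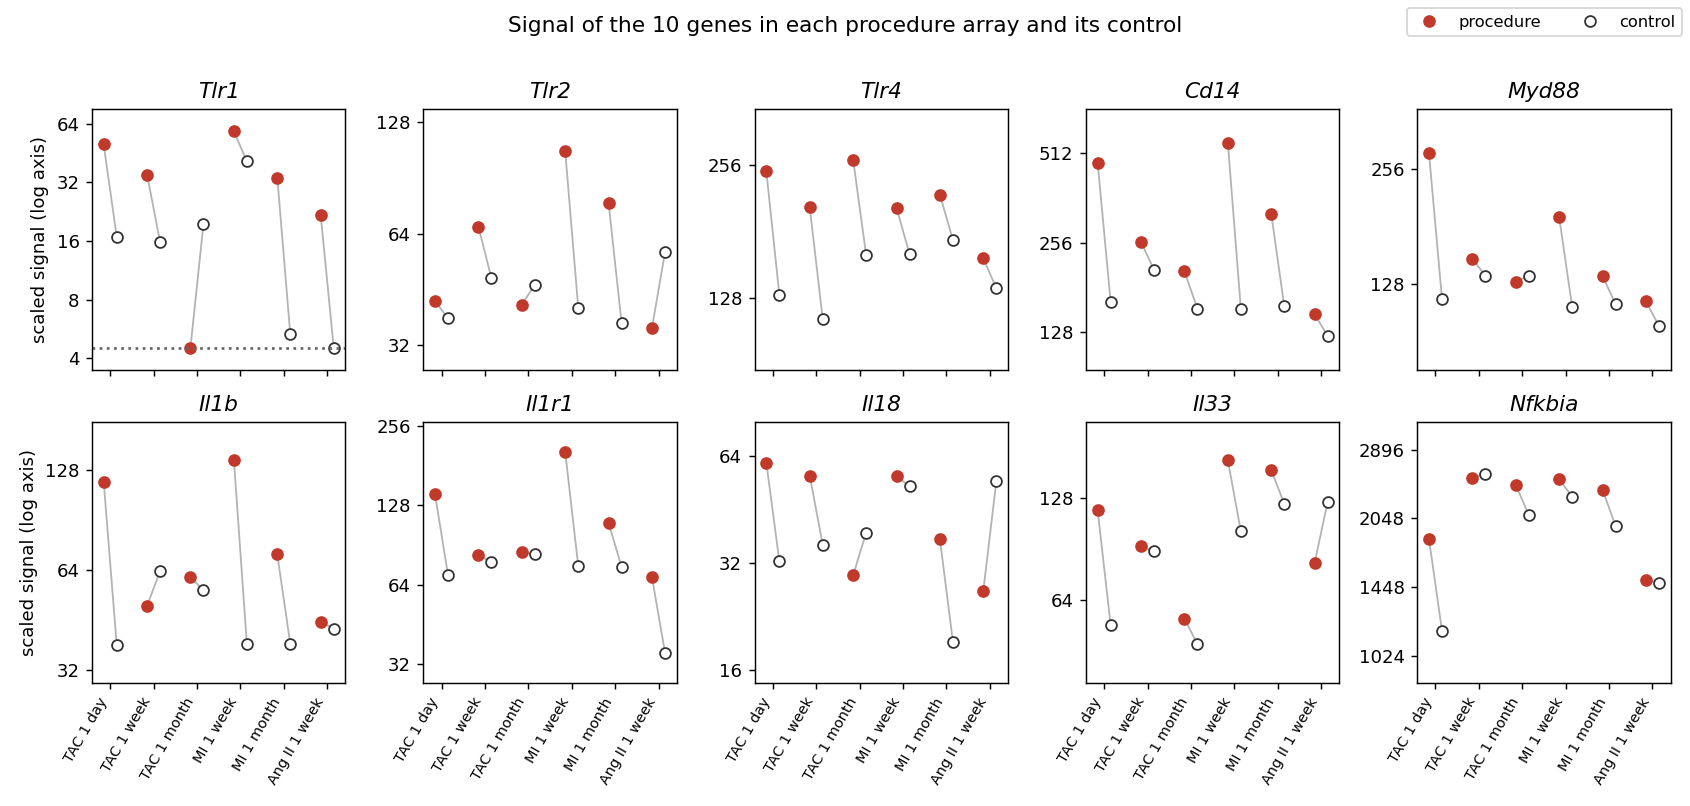
Scaled signal (log axis) of each gene in the 6 procedure arrays (filled) and their 6 controls (open), with a grey line joining a pair and a dotted line at the floor of 4.54 in the Tlr1 panel. Cd14, Il1b, Il1r1 and Myd88 have their 2 highest arrays in TAC 1 day and MI 1 week. Tlr4, Cd14 and Il1r1 are above their controls in all 6 pairs.

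Among the receptors, Cd14 was more than 2-fold higher in 3 pairs. Its signal was 476 in TAC 1 day against 162 in the sham, 257 in TAC 1 week against 208, and 205 in TAC 1 month against 153. In MI 1 week it was 556 against 153 in the sham, in MI 1 month 321 against 157, and with Ang II 147 against 124 in the vehicle control. The log2 ratios were thus highest in MI 1 week (1.86), TAC 1 day (1.56) and MI 1 month (1.03), above the largest difference between controls of 1 time (0.74), and 0.24 to 0.42 in the other 3. The procedure arrays ran, from the highest, MI 1 week, TAC 1 day, MI 1 month, TAC 1 week, TAC 1 month and Ang II, and no 2 neighbours in that order differed by more than the controls did.

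Tlr4 followed another order, from TAC 1 month down to Ang II, and again no 2 neighbours in it differed by more than the controls did. Its signal was 247 in TAC 1 day against 130 in the sham, 205 in TAC 1 week against 115, and 263 in TAC 1 month against 160. It was 204 in MI 1 week against 161 in the sham, 219 in MI 1 month against 173, and 157 with Ang II against 135. The 3 TAC ratios (0.93, 0.84 and 0.71) were above the largest difference between controls (0.49). Those of MI (0.35 and 0.34) and Ang II (0.22) were below it. The TAC 1 week and MI 1 week signals were near equal (205 and 204), so their unlike ratios rest on the shams (115 and 161). In the fit with a separate effect for each model, Tlr4 was the 1 gene of the 10 to pass, for TAC (0.83 ± 0.13, 3 pairs, adjusted p = 0.0271, where 1.08% of all genes were called higher and 2.34% in either direction). This call was lost at the same size without the filter on dim genes (adjusted p = 0.136) and without the intensity trend (0.13). The TAC minus MI difference of 0.48 ± 0.20 did not pass (limma adjusted p = 0.983).

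Tlr4 had 4 probe sets above the dim limit, which differed in size. The brightest, used here (1418162_at), had a mean ratio of 0.56, and the next (1418163_at), whose annotation cites the same transcript, 0.40. The dimmer 1430695_at and 1442827_at had 1.14 and 0.97. In the TAC 1 day pair they ran from 0.93 to 2.99, and in MI 1 week the 1430695_at set was below its sham (-0.33) while the other 3 were above (0.18 to 1.02).

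Tlr2, which recognises bacterial lipoproteins as a dimer with Tlr1 or Tlr6, was high after infarction. Its signal was 107 in MI 1 week against 40.4 in the sham and 77.4 in MI 1 month against 36.6. In TAC it was 42.1 against 37.8 at 1 day, 67.0 against 48.6 at 1 week and 41.2 against 46.7 at 1 month, and with Ang II 35.7 against 57.1. Both MI ratios (1.40 and 1.08) were past the 2-fold rule and above the largest difference between controls (0.50). The Ang II ratio of -0.68 was also larger in size than that difference, and the Ang II array was the lowest of the 12, near the MI 1 month sham (36.6). Its control (57.1) was the highest of the 6 controls. The difference of 0.50 rests on that same control, set against the MI 1 week sham (40.4). The signs of the TAC 1 day (0.15) and TAC 1 month (-0.18) ratios turned with signals as deposited (-0.00056 and 0.13). The TAC minus MI difference was -1.10 ± 0.37 (limma adjusted p = 0.983) and did not pass, and neither did the mean over 6 pairs (0.37 ± 0.26, adjusted p = 0.374).

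Tlr1 was measured close to the background. Its signal was 50.0, 35.0 and at the floor in TAC at 1 day, 1 week and 1 month, against 16.8, 15.8 and 19.6 in the shams. It was 58.4 and 33.8 in MI at 1 week and 1 month against 41.0 and 5.30, and 21.7 with Ang II against the floor. The 4 comparisons of controls of 1 time reached a difference of 3.17 on the log2 scale, larger than every pair ratio of this gene (-2.11 to 2.67). That difference is between the MI 1 week sham (41.0) and the Ang II control at the floor, so the floor sets its size too. The floor also sets the sizes in TAC 1 month and Ang II, which were -0.28 and 0.42 when it was raised to the 40th percentile (1.06 in MI 1 month). At that raised floor the TAC 1 day ratio stayed at 1.57, and no control difference is given for it.

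**Figure D2:**
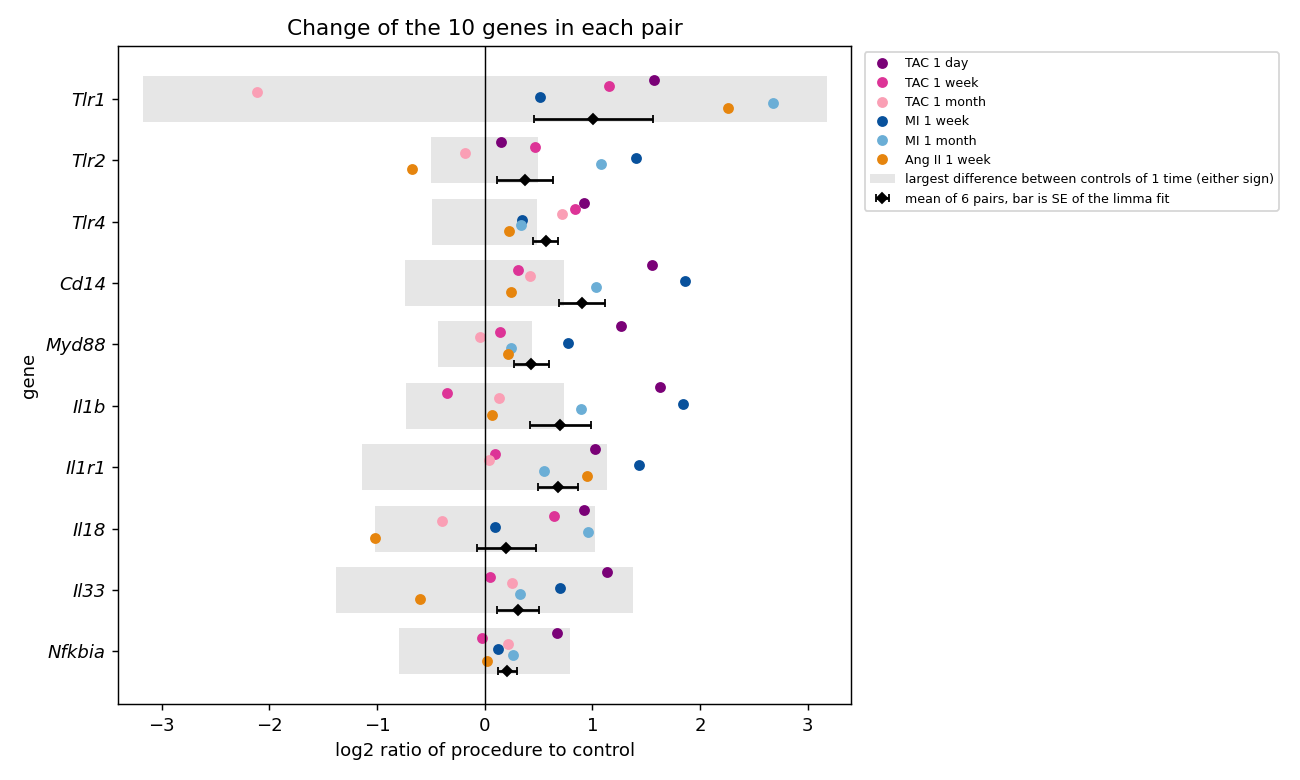
Log2 ratio of procedure to control for each gene in the 6 pairs (coloured points), the largest difference between controls of 1 time drawn to both sides of 0 (grey bars) and the mean of 6 pairs with the SE of limma's fit (diamonds). The pairs of Tlr1, Il18, Il33 and Nfkbia all lie inside their grey bars, and those of Tlr2, Tlr4, Cd14, Myd88, Il1b and Il1r1 lie outside in 1 to 3 pairs. The bar of Tlr1 is set by a control at the floor.

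Myd88 carries the signal from Toll-like and IL-1 receptors to the IRAK kinases. Its signal was 281 in TAC 1 day against 117 in the sham, 149 in TAC 1 week against 135, and 130 in TAC 1 month against 134. It was 191 in MI 1 week against 112 in the sham, 134 in MI 1 month against 114, and 116 with Ang II against 99.7. TAC 1 day (1.26) and MI 1 week (0.78) stood above the largest difference between controls (0.44), and the TAC 1 day array exceeded the next highest by 0.56, again more than the controls differed. The mean over 6 pairs was 0.43 ± 0.16 (limma adjusted p = 0.114) and did not pass.

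Among the cytokines Il1b, Il18 and Il33, Il1b had the highest single ratios. It encodes interleukin-1 beta, made as a precursor that caspase-1 cleaves. Its signal was 118 in TAC 1 day against 38.2 in the sham, 50.1 in TAC 1 week against 63.6, and 61.1 in TAC 1 month against 55.7. It was 137 in MI 1 week against 38.3 in the sham, 71.4 in MI 1 month against 38.4, and 44.7 with Ang II against 42.8. The ratios in MI 1 week (1.84), TAC 1 day (1.63) and MI 1 month (0.89) were above the largest difference between controls (0.73), the first 2 of them past the 2-fold rule. TAC 1 week was lower than its sham (-0.35). The mean, 0.70 ± 0.28, did not pass (limma adjusted p = 0.135).

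Its receptor Il1r1 was high in the same arrays. The signal was 141 in TAC 1 day against 69.6 in the sham, 83.1 in TAC 1 week against 77.8, and 85.4 in TAC 1 month against 83.3. It was 204 in MI 1 week against 75.4 in the sham, 110 in MI 1 month against 74.6, and 68.1 with Ang II against 35.3. MI 1 week (1.44) was above the largest difference between controls (1.14), and TAC 1 day (1.02) and Ang II (0.95) were not. The Ang II ratio rests on a control of 35.3, the lowest of the 12 arrays, the other 5 controls being between 69.6 and 83.3. The difference of 1.14 rests on the same array, set against the TAC 1 week sham (77.8). The TAC and MI shams of 1 time lay closer, at 77.8 and 75.4 at 1 week and 83.3 and 74.6 at 1 month. A second probe set of Il1r1 was too dim to use (mean signal 5.09).

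For Il18 and Il33 no pair ratio exceeded the largest difference between controls of 1 time, although some procedure arrays lay above all 6 controls (Il18 in TAC 1 day, TAC 1 week and MI 1 week, Il33 in both MI arrays). Il18, a cytokine that caspase-1 also activates, had signals of 61.3, 56.3 and 29.6 in TAC at 1 day, 1 week and 1 month, against 32.4, 36.0 and 39.0 in the shams. It was 56.2 and 37.3 in MI at 1 week and 1 month against 52.6 and 19.2, and 26.8 with Ang II against 54.3. Its ratios were 0.92, 0.64 and -0.40 for the TAC times in order, 0.097 and 0.96 for the MI times, and -1.02 for Ang II, where controls of 1 time differed by up to 1.02. Il33, a nuclear cytokine released from injured stromal cells, had signals of 118, 92.2 and 56.2 in TAC at 1 day, 1 week and 1 month, against 53.7, 88.9 and 47.2 in the shams. It was 165 and 155 in MI at 1 week and 1 month against 102 and 123, and 82.2 with Ang II against 125. Its largest ratio, 1.13 in TAC 1 day, was smaller than the difference of 1.38 that controls of 1 time reached. The means over 6 pairs were 0.20 ± 0.27 for Il18 (limma adjusted p = 0.673) and 0.31 ± 0.19 for Il33 (adjusted p = 0.323).

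Nfkbia encodes IkB-alpha, which holds NF-kB in the cytoplasm and is itself induced by it. Its signal was 1846 in TAC 1 day against 1162 in the sham, 2516 in TAC 1 week against 2563, and 2424 in TAC 1 month against 2085. It was 2496 in MI 1 week against 2286 in the sham, 2368 in MI 1 month against 1971, and 1498 with Ang II against 1480. The TAC 1 day ratio of 0.67 was the highest, yet that array was dimmer than 4 of the 6 controls, and 0 of 6 procedure arrays fell outside what the controls spanned (1162 to 2563). These are levels of the brightest set, 1420088_at, and other sets differed. On 1420089_at 0 procedure arrays lay above all 6 controls. On 1448306_at 4 procedure arrays lay above all 6 controls, among them TAC 1 day at 543 and MI 1 week at 709 against a highest control of 527. On 1438157_s_at 2 did, TAC 1 day at 905 and MI 1 week at 1001 against 808, and on 1449731_s_at 4 did, TAC 1 day not among them. All 5 probe sets of Nfkbia were above the dim limit, with TAC 1 day ratios from 0.52 to 0.86 and means over 6 pairs from 0.12 to 0.29, the highest being that of 1448306_at, whose annotation cites the RefSeq transcript. The mean of the set used here, 0.21 ± 0.089, did not pass (limma adjusted p = 0.15).

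Counted by pair, all 10 genes were higher than in the control in TAC 1 day, MI 1 week and MI 1 month, 8 in TAC 1 week, 7 with Ang II and 6 in TAC 1 month. The sign turned with signals as deposited for Tlr2 in TAC 1 day, for Nfkbia (0.19) in TAC 1 week, and for Tlr2 and Myd88 (0.27) in TAC 1 month. After quantile normalization it turned for Il33 (-0.0076) and Nfkbia (0.059) in TAC 1 week and for Il18 (-0.050) in MI 1 week. The 2-fold rule asked for a log2 ratio of 1 or more in size, a brighter signal over the median of all values (25.9) and a procedure array beyond every one of the 6 controls. By this rule 5 of the 10 were higher in TAC 1 day (Tlr1, Cd14, Myd88, Il1b and Il1r1), where 5.7% of all genes were. In MI 1 week 4 were higher (Tlr2, Cd14, Il1b and Il1r1), where 6.01% were. In MI 1 month 2 were higher (Tlr2 and Cd14), where 2.89% were. The other 3 pairs had 0 of the 10, where of all genes 2.18% (TAC 1 week), 1.91% (TAC 1 month) and 0.946% (Ang II) were higher. None of the 10 was 2-fold lower in any pair. Of all genes, 6.4% were in TAC 1 day, 0.826% and 1.26% in the later TAC pairs (1 week, then 1 month), 1.3% in MI 1 week, 0.619% in MI 1 month and 0.774% with Ang II.

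With no limit on size, 7 of the 10 genes lay above all 6 controls in TAC 1 day, against 24.6% of all genes, and 9 in MI 1 week, against 25%. The count was 6 in MI 1 month (19.6% of all genes), 5 in TAC 1 week (21.8%), 2 in TAC 1 month (19.3%), and 0 for Ang II (13.9%). Below all 6 controls lay Tlr2 with Ang II, 1 of the 10 (11.9% of all genes), and 0 of the 10 in each other pair. Of all genes, 34% lay there in TAC 1 day, 21.2% and 18.8% in the later TAC pairs (1 week, then 1 month), and 25.6% and 19.5% in the MI pairs (1 week, then 1 month). Tlr4, Cd14 and Il1r1 were higher in 6 of 6 pairs, as were 8.67% of all genes, and 0 of the 10 had every procedure array above every control, as had 1.36% of all genes.

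The median ratio of the 10 genes was 1.08 in TAC 1 day, 0.23 in TAC 1 week and 0.085 in TAC 1 month. For MI the median was 0.74 at 1 week and 0.72 at 1 month, and for Ang II 0.14. The medians of all genes lay between -0.074 and 0.0090. With signals as deposited the all-gene medians became -0.23 (TAC 1 day), 0.21 (TAC 1 week), 0.31 (TAC 1 month) and 0.16 (MI 1 week), and the ratios of the 10 genes are given relative to the scaled arrays.

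The change at 1 day was set against the mean of the 5 later pairs. The difference was positive for 9 of the 10 genes, Tlr2 (-0.26) being the other. By limma 0 of the 10 passed, where 5.88% of all genes passed (2.08% higher and 3.8% lower). An unadjusted p under 0.05 was reached by 3 of the 10 and by 2564 of all 11624 genes. The difference was largest beside its SE for Nfkbia (0.55 ± 0.16, adjusted p = 0.0712), Myd88 (1.00 ± 0.30, adjusted p = 0.0828) and Il33 (0.99 ± 0.41, adjusted p = 0.199). A single pair of arrays carries the 1 day value, so its time and its own array cannot be told apart. For the TAC minus MI difference 0 of the 10 and 0% of all genes passed (limma, 2 and 527 at an unadjusted p under 0.05). For MI alone 0 of the 10 and 0.981% of all genes passed (limma, 4 and 2006 at an unadjusted p under 0.05). The MI effects were 1.45 ± 0.32 for Cd14 (adjusted p = 0.0825), 1.24 ± 0.28 for Tlr2 (0.0871) and 1.37 ± 0.47 for Il1b (0.192), over 2 pairs. For Ang II 0 of the 10 and 0% of all genes passed (0 and 284 at an unadjusted p under 0.05), with 1 pair whose spread is borrowed from the others.

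Across the 12 arrays the log2 levels of Cd14, Myd88, Il1b and Il1r1 went together. Their 6 Pearson correlations lay between 0.80 and 0.93 and were the only ones above 0.7 among the 45 pairs of the 10 genes, whose median was 0.48 and lowest 0.17 (Tlr4 with Il18). These are descriptions over arrays that share procedures and controls. Among all tested genes, the 2 most like Cd14 were Itgb2 (r = 0.98) and Tyrobp (0.98), and the 2 most like Il1b were Ncf4 (0.95) and Sash3 (0.95). For Myd88 they were Cd44 (0.97) and Gm13889 (0.97), and for Il1r1 Lgals3 (0.95) and Dock2 (0.95). Tlr4 was most like Plpp2 (0.94) and Entpd1 (0.92), and Tlr2 most like Vegfd (0.93) and Marveld1 (0.90). Nfkbia was most like Malat1 (0.95) and Msl2 (0.95), Tlr1 like Traf7 (0.92) and Casp4 (0.89), Il33 like Smarce1 (0.88) and Slc25a17 (0.87), and Il18 like Pck2 (0.84) and Sorcs2 (0.83).

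By the median of each list, macrophage and neutrophil markers were high in the same arrays as Cd14, Il1b, Il1r1 and Myd88, though single markers differed. The 10 macrophage markers had median ratios of 1.44 in TAC 1 day, 0.20 in TAC 1 week and 0.39 in TAC 1 month, 1.49 in MI 1 week and 1.07 in MI 1 month, and 0.42 with Ang II, and 5 of 10 were called higher and 0 lower. In TAC 1 day their ratios ran from 0.035 (Cx3cr1) and 0.27 (Csf1r) up to 3.15 (Itgam) and 3.43 (Ccr2). Their summed signal ran from 3253 to 10206 in procedure arrays and from 2687 to 4545 in controls, and 0 were at the floor on any array. That sum was 5255 in TAC 1 day (sham 3162) and 4920 in TAC 1 week (sham 4545). In MI it was 10206 at 1 week (sham 3565) and 5830 at 1 month (sham 3090). Of 8 neutrophil markers on the array 5 were above the dim limit, with medians of 2.50 in TAC 1 day, -0.79 in TAC 1 week, 0.60 in TAC 1 month, 2.62 in MI 1 week, 1.63 in MI 1 month and 0.17 with Ang II. None of the 5 was called (0 higher and 0 lower), and the summed signal ran from 110 to 3839 in procedure arrays and from 100.3 to 697 in controls, with 0 to 3 markers at the floor on an array. The fibroblast median was -0.21 in TAC 1 day and 0.72 in MI 1 week, with 3 of 5 markers called higher, and that of endothelial markers -0.44 and 0.11. The 3 atrial markers had medians of 2.90 in MI 1 week, 1.19 in MI 1 month and 1.13 in TAC 1 week, with a summed signal of 8703 in MI 1 week against 1141 in its sham, and 1 of them, Sln, was called higher. For cardiomyocyte markers the medians were -0.28 and -0.29 in the later TAC pairs (1 week, then 1 month) and -0.23 in MI 1 week, and 1 of 7, Ryr2, was called lower. The part of these cells in the changes of the 10 genes was not tested.

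**Figure D3:**
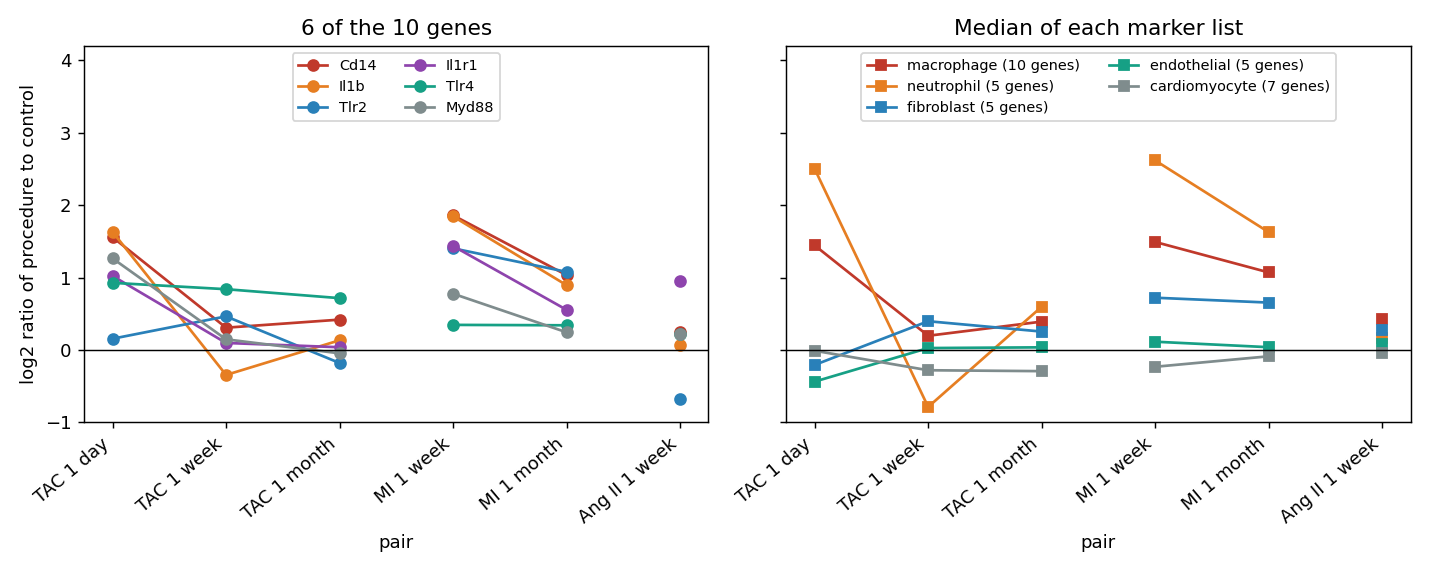
Log2 ratio of procedure to control in the 6 pairs for 6 of the 10 genes (left) and median ratio of 5 marker lists (right), with lines joining the times of 1 model. Cd14, Il1b, Il1r1 and Myd88 and the macrophage and neutrophil medians are higher in TAC 1 day than in the later TAC pairs and higher in MI 1 week than in MI 1 month. Tlr4 stays between 0.71 and 0.93 in TAC on its brightest probe set, and its other sets differ.

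The rest of the pathway was read from 11 lists of 77 genes by role, of which 69 had a probe set with 1 symbol and 55 were above the dim limit. Of these 55, 10 rose and 0 fell, where 5.16% of all genes rose and 5.7% fell. The median of the 55 means was 0.23, against -0.0038 for all genes. Bcl3 and Icam1 were higher in 5 of 6 pairs and the other 8 in 6 of 6. Of 14 alternatives (13 for Tnc), the call was kept in 13 for Bgn, 12 for Vcan and Ly86, 11 for Ptgs2, 9 for Lbp, 8 for Nfkbiz, 7 for Tnc, 6 for Bcl3, 5 for Nfkbie and 4 for Icam1.

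Receptor helpers and ligands held 5 of the 10 rises. Lbp, the serum protein that binds lipopolysaccharide, rose by 1.03 ± 0.19 (limma adjusted p = 0.0132), and Ly86, a partner of the receptor-like Cd180, by 0.90 ± 0.16 (adjusted p = 0.0126), as 2 of the 6 helpers. Of 5 endogenous ligands of Toll-like receptors 3 rose, and all 3 are also matrix genes: tenascin-C (Tnc) by 2.20 ± 0.49 (adjusted p = 0.0252), versican (Vcan) by 1.40 ± 0.20 (adjusted p = 0.00647) and biglycan (Bgn) by 1.15 ± 0.14 (adjusted p = 0.00329). S100a9, a neutrophil alarmin that is also on the neutrophil list, was at 1.67 ± 0.51 (limma adjusted p = 0.0622). Lbp was at 0.59 and Vcan at 0.63 with the mean of all probe sets, and neither passed then.

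Of the other Toll-like receptors 0 of 4 passed, with Tlr13, a sensor of bacterial RNA, at 1.03 ± 0.33 (adjusted p = 0.0699) and Tlr9, a sensor of DNA, at -0.28. Tlr9 was positive when the floor was raised to the 40th percentile (0.028) and without the TAC 1 day pair (0.11). Of the IL-1 family 1 gene was bright enough, the co-receptor Il1rap at 0.50 ± 0.18 (adjusted p = 0.105), and Il1a was at the floor on 10 of 12 arrays.

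Among the adaptor and relay genes 0 passed, where 10.9% of all genes passed in either direction. Ticam2, Irak4 and Traf3 had no probe set with 1 symbol. Of the adaptors 0 of 2 passed (Tirap at 0.16 and Ticam1 at -0.22), and of the IRAK, TRAF and TAK1 relay 0 of 8, with Traf6 at 0.36 and Irak1 at 0.28 the largest. Of 4 genes of the interferon branch 0 passed (Irf5 at 0.56, Irf7 at 0.18). Among NF-kB and IKK genes 3 of 10 rose: Bcl3, a nuclear partner of NF-kB, by 1.24 ± 0.31 (limma adjusted p = 0.0378), Nfkbie, the inhibitor IkB-epsilon, by 1.16 ± 0.30 (adjusted p = 0.0393) and Nfkbiz, a nuclear regulator, by 0.97 ± 0.20 (adjusted p = 0.021). Nfkbie was at 0.50 (adjusted p = 0.403) after quantile normalization.

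Of 6 brakes on the pathway above the dim limit 0 passed, with Tollip at -0.21 and Tnip1 at 0.19 the largest in size. In the inflammasome 0 of 4 passed (Casp4 at 0.69, Casp1 at 0.25). Of 5 NF-kB-induced genes 2 rose: Ptgs2, cyclooxygenase-2, by 1.53 ± 0.26 (limma adjusted p = 0.0106) and the adhesion molecule Icam1 by 0.49 ± 0.14 (adjusted p = 0.0468). The chemokine Ccl2 was at 1.67 ± 0.50 (adjusted p = 0.0581). Tnf and Il6 were too dim for the test, with Il6 (named after its values were seen) at 6.67 to 161 in procedure arrays and 4.54 to 16.4 in controls. Some genes passed under 1 alternative or a pair of them. Tlr13 (limma adjusted p = 0.0426), Ccl2 (0.0302) and S100a9 (0.0321) did with signals as deposited, Il1rap (0.0348) and Ccl2 (0.038) without the Ang II pair, S100a9 (0.0349) without the TAC 1 week pair and Casp4 (0.0409) without the TAC 1 month pair. None of the 10 rises passed without the filter on dim genes, where 0 genes of the whole table did.

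**Figure D4:**
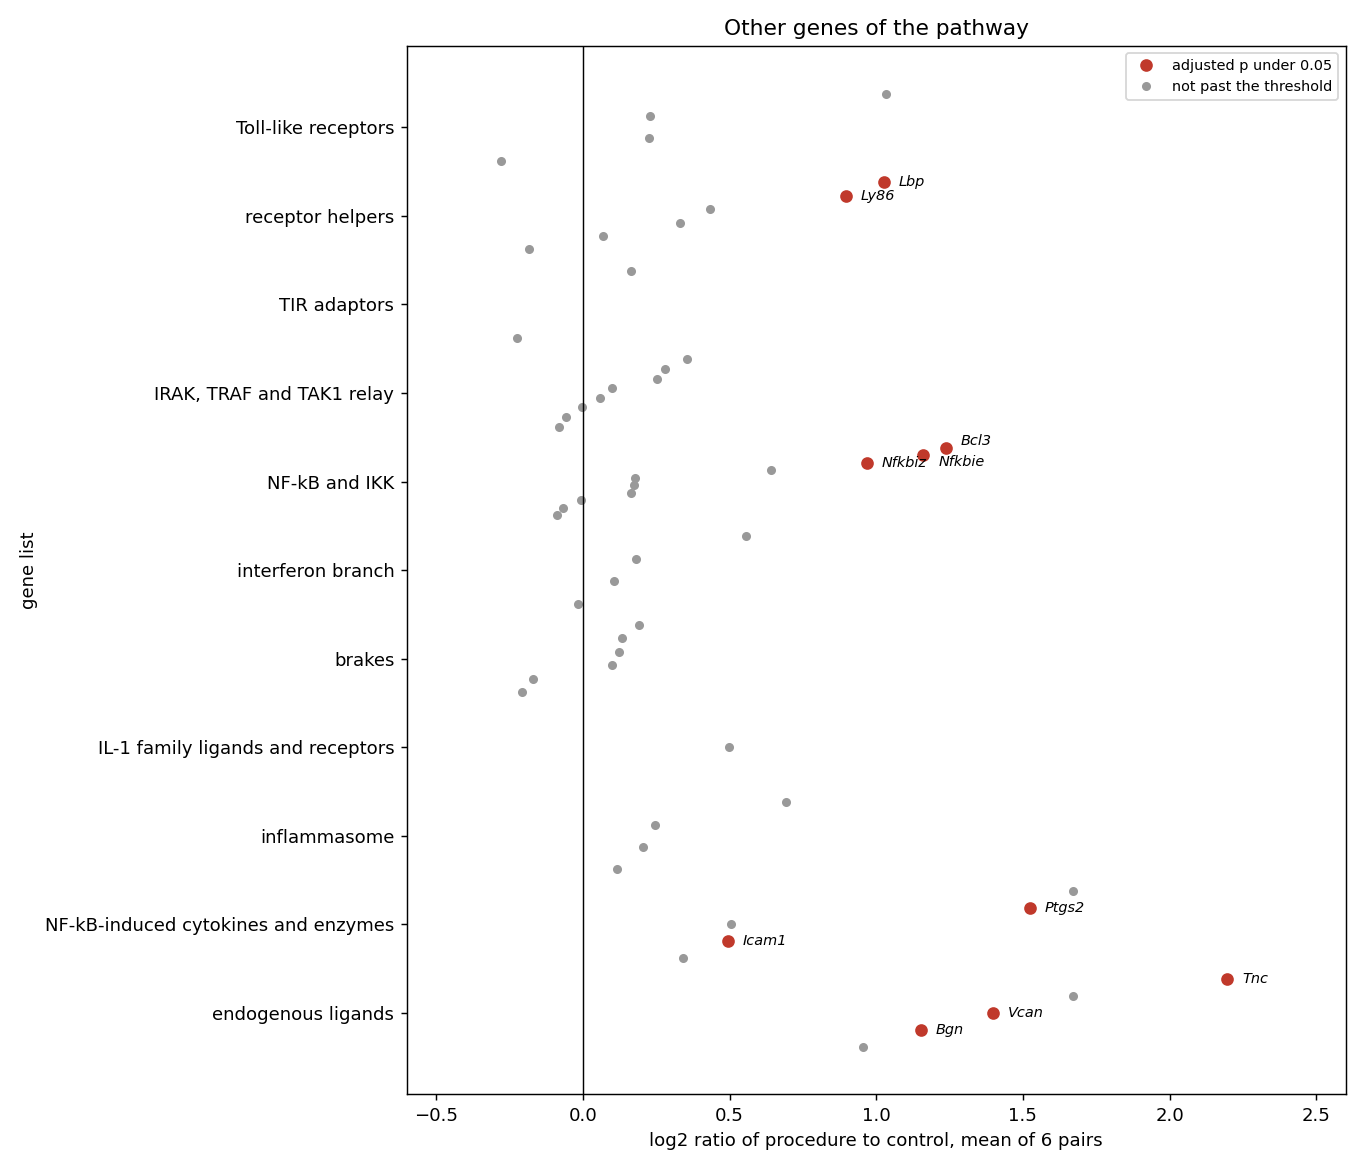
Mean log2 ratio over the 6 pairs of the 55 other pathway genes above the dim limit, by list (1 point per gene, red past limma's adjusted p of 0.05). The 10 red points, all positive, lie in 4 lists: receptor helpers, NF-kB and IKK, NF-kB-induced genes and endogenous ligands.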

How the data were processed

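The deposited values are intensity, a linear signal for each of 45101 probe sets on 12 arrays, made from 5 µg of total RNA per the labels' protocols. The submitters' processing notes name GCOS. Neither its version nor how signals were computed and scaled is stated in those sources. The TAC 1 day values alone carry more than 1 decimal. Symbols come from the platform annotation, in which 34958 probe sets had 1 symbol. All 10 genes matched RefSeq by Entrez identifier.

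The 2% trimmed means of the arrays (105 to 131) differed by over 5%, so signals were scaled to a common trimmed mean (factors 0.872 to 1.09). Signals under the 20th percentile (4.54) were raised to it before log2. The genes tested had a mean over 18.1, the 40th percentile among probe sets with a symbol. The actin 3' to 5' ratio was 1.18 to 1.33. Precision is limited by the number of arrays.

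The fits used limma 3.58.1 in R 4.3.3, with the pair as a block and an intensity trend. The residual degrees of freedom were 5 for the mean of 6 pairs, 3 for separate models and 4 for 1 day against later pairs. The residual holds true differences between pairs as well as noise. Arrays of a pair deviated together (correlations of 0.149 to 0.286 across genes). Each array is labelled as another group, but the number of animals behind it is not stated. The p-values refer to the spread between these pairs, and the share of measurement error in that spread is not known. A simulation drew independent normal noise at the fit's own variance and gave each of 200 genes the same change in all 6 pairs. Of these 200 genes, changed by 1 on the log2 scale, 175 were recovered among 11624, with 7 false calls. The real pairs differ in procedure and time, so these counts do not measure power or false calls in these data.

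The 10 genes, the lists and the marker genes were chosen with earlier results of these data known. The text names all 10 genes, the other pathway genes that passed or were among the 2 largest in size of their list, and the 2 genes most correlated with each of the 10. Alternatives changed the scaling, floor, probe sets, filter, trend and block, or left out a pair.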

Additional observations from a re-analysis of the deposited data

How the results depend on the processing

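The count of 3 of the 10 genes called over the mean of 6 pairs was 0 without the filter on dim genes and without the intensity trend, 1 with no replicate block, and 0 to 2 with 1 pair left out. Over all genes that count, 1262 as reported, was 800 with signals as deposited (692 higher and 108 lower, against 600 and 662), 694 with probe sets averaged, 0 without the filter (limma, 3703 at an unadjusted p under 0.05), 241 without the trend and 473 with no replicate block. It was 256 to 1485 with 1 pair left out. For TAC the count of 272 genes was 102 with signals as deposited (92 higher and 10 lower, against 125 and 147), 75 with probe sets averaged, and 0 without the filter (limma, 2677 at an unadjusted p under 0.05) and without the trend (2130). For MI the count of 114 was 60 with probe sets averaged, and 0 without the filter (2255) or without the trend (1665). For TAC 1 day against later pairs the count of 684 was 1282 with signals as deposited (103 higher and 1179 lower, against 242 and 442), 254 with probe sets averaged, 240 without the filter and 149 without the trend. The cause was not tested. A fit with a pair left out also had fewer arrays. Over all genes its count was 1255 without TAC 1 day and 1485 without Ang II, and 256 to 295 without each other pair. Directions turned for Nfkbia with Ang II with probe sets averaged (-0.14), for Tlr1 in TAC minus MI at the 40th percentile floor (0.015), and for Tlr9 (-0.28) at that floor (0.028) and without the TAC 1 day pair, its range with 1 pair left out being -0.54 to 0.11. Signal near the floor limits Tlr1 most.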
